A study of Mus musculus with 20 samples.

Results

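The mouse mitochondrial genome encodes 37 genes, and each of the 37 had a row of its own among the 55866 genes of the count table. They were taken by chromosome name (MT), with no measured value used, and comprised 13 mRNAs, 2 rRNAs and 22 tRNAs. Transcription of this circular genome runs from promoters on both strands and gives long precursors that are cut at the tRNAs, which sit between most of the other genes. The mRNAs encode core subunits of respiratory complexes I, III and IV and of the ATP synthase (complex V), and they are translated inside the organelle by mitochondrial ribosomes, which are built on the 2 mitochondrial rRNAs and on proteins imported from the cytosol. Rpl22, the protein that carries the HA tag in RiboTag mice, belongs to the large subunit of cytosolic ribosomes.

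RNA came from 10 orthotopic Py8119 mammary tumors, a mouse breast carcinoma line grown in the mammary fat pad of female RiboTagEC mice (Rpl22HA/HA with Cdh5CreERT2, C57BL/6J). All mice carried the tag and received tamoxifen (75 mg/kg on 5 days) from 3 weeks of age, and tumor cells were implanted at 8 weeks. Because Cre was driven by the Cdh5 promoter, only host cells that expressed Cdh5 could recombine the tagged allele, and the implanted carcinoma cells carried no tag. Treatment began at a tumor volume of about 30 mm3 by the sample labels, or 50 mm3 by the stated design. Then 5 mice received the Notch4 antibody 6-3-A6 (25 mg/kg, 2 injections per week) and 5 received control mouse IgG. Tumors were taken at day 10. From each lysate a part was kept as input and the rest was immunoprecipitated with anti-HA beads (IP), so every tumor gave 1 input and 1 IP library, 20 in all, with 5 per treatment and fraction. For the 6-3-A6 libraries the description field named the opposite fraction to the title and source name. The count columns were matched to the titles. As a group, the 6-3-A6 libraries titled HA, the tag used for the IP, had 17 of 17 endothelial markers called higher than those titled Input. The median log2 fold change of these markers was 4.49 (edgeR), and 12.8% of the 14488 genes tested were called higher.

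Library totals ran from 11881214 to 26728205 counts (median 16942643), so that a count of 0 left room for 0.112 to 0.252 CPM (counts scaled to a library of 1e6). The control IgG 4 IP and the 6-3-A6 4 input stood apart from their groups in several mitochondrial genes, the control IgG 1 input in mt-Rnr2 and the control IgG 3 IP in the ratio of mt-Nd2 to mt-Co1. Over all tumors, Pecam1 and Cdh5, both adhesion proteins of endothelial junctions, were higher in IP by 4.12 ± 0.32 and 4.36 ± 0.30 (log2, SE). Rpl22 itself was lower in IP (log2 fold change -1.13 ± 0.20, adjusted p = 0.000178, edgeR quasi-likelihood test). None of the 17 endothelial markers was at 0 in all libraries. In these bulk libraries, fewer cells of a type and less RNA per cell cannot be told apart.

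Not every mitochondrial gene could be measured. Of the 13 mRNAs, 7 held nearly all mRNA counts (mt-Nd1, mt-Nd2, mt-Co1, mt-Nd4, mt-Nd5, mt-Nd6 and mt-Cytb), whereas the other 6 (mt-Co2, mt-Atp8, mt-Atp6, mt-Co3, mt-Nd3 and mt-Nd4l) held 218 counts in total over 20 libraries, against 29013074 counts on all 37 genes. These 6 genes follow each other from base 7013 to base 10173 of the mitochondrial chromosome. In the mouse nuclear genome, 7 unprocessed pseudogenes on chromosome 1 copy the stretch from the end of mt-Co1 to the first part of mt-Nd4 (chr1:24650616-24655278, minus strand, GRCm39 positions of the count table). Gm28661 repeats bases 1 to 681 of mt-Co2 with 0 edits, and an older copy on chromosome 2, Gm13341, differs from mt-Co2 by 28 edits.

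The first 80 bases of mt-Co2, the cytochrome c oxidase subunit that accepts electrons from cytochrome c, are shown with those of its copies, as an example of a gene whose 100-base windows recur in the nuclear genome (GENCODE vM21 transcripts). Capitals mark bases that differ from mt-Co2.
mt-Co2: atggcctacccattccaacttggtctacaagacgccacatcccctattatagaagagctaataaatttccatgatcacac
Gm28661: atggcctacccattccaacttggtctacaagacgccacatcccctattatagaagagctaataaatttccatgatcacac
Gm13341: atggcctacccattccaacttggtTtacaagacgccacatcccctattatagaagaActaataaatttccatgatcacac

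Of the 585 windows of 100 bases (the read length) inside mt-Co2, 582 recurred exactly in an annotated nuclear transcript. The same held for 579 of 582 windows of mt-Atp6, 684 of 685 of mt-Co3, 243 of 249 of mt-Nd3 and 195 of 198 of mt-Nd4l. For mt-Atp8 no window recurred in an annotated transcript (0 of 105). The stretch between Gm10925 (the copy of mt-Atp6) and Gm28661, where a copy of mt-Atp8 would lie, holds no pseudogene of its own in the count table, and its letters were not searched. mt-Nd4 and mt-Co1 were copied in part, with 777 of 1279 and 446 of 1446 windows. Of the mt-Co1 windows, 380 recurred in Gm29216 and 80 in Gm13340, a copy of the whole gene with 37 edits. The stretches below are printed because they hold an edge of the longest exact match to the chromosome 1 copies. Capitals are the bases shared with Gm29216, from base 1067 to the end of mt-Co1, and with Gm28439, from base 1 to base 876 of mt-Nd4.
mt-Co1 bases 1037 to 1096: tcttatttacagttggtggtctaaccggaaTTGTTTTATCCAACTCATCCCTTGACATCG
mt-Nd4 bases 847 to 906: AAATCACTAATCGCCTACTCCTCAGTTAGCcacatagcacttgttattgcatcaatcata

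mt-Nd2 shared 30 of 939 windows with Gm13339, and mt-Nd1, mt-Nd5, mt-Nd6, mt-Cytb and both rRNAs shared 0. The 7 pseudogenes on chromosome 1 held 628 counts in all, at most 49 in a library, and the 3 on chromosome 2 held 0. Counts on the 6 low mRNAs were not read as a measure of their RNA, and the filter on low counts left them out of every main comparison. Only the alternative fits with no filter and by DESeq2, which did not use this filter, included them.

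**Figure D1:**
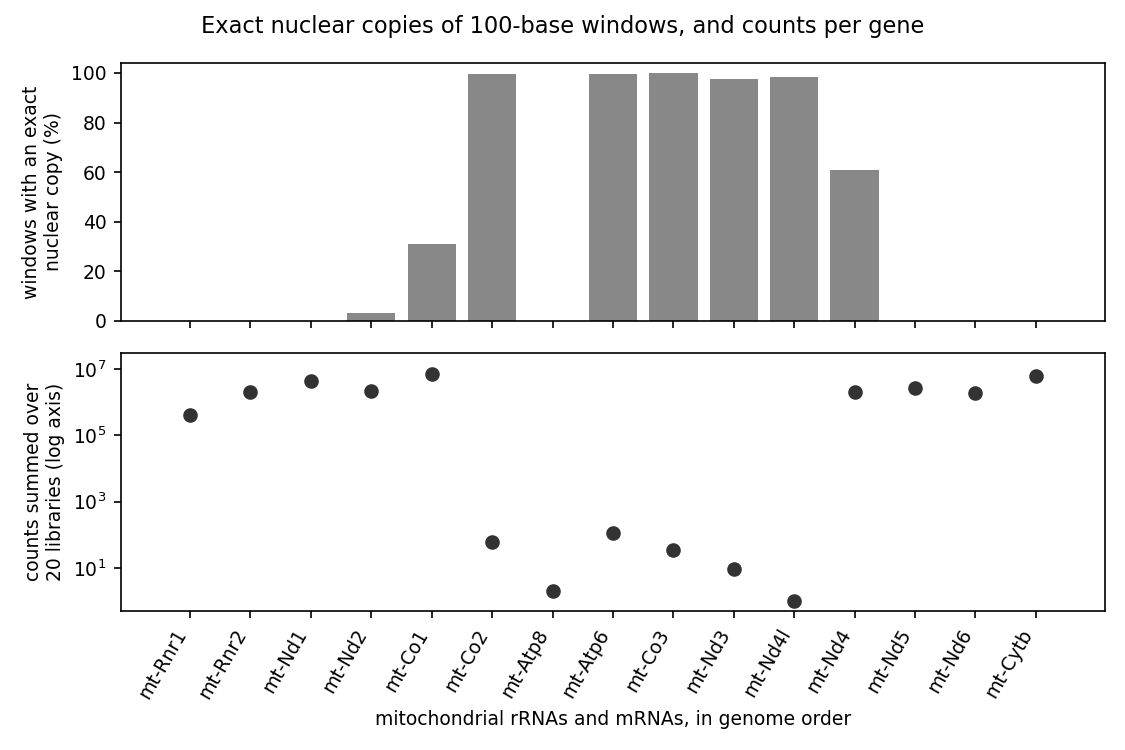
Upper panel, percent of the 100-base windows inside each mitochondrial mRNA or rRNA gene that recur exactly in an annotated nuclear transcript. Lower panel, counts on the same gene summed over 20 libraries (log axis). The 5 mRNAs with more than 97% of windows copied hold 1 to 112 counts, mt-Atp8 holds 2 with no annotated copy, and the 9 genes counted well hold 412715 to 7289255.

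Most tRNA rows were empty as well. The tRNA genes are 59 to 75 bases long, shorter than a read, and without strand 19 of the 22 had no window that touched them alone. The 14 tRNAs at 0 in all 20 libraries were among these 19. If strand had been used, 13 tRNAs would have had windows of their own, and 7 of those 13 were at 0. Whether the library kit kept strand is not given in the sources used here, so counts on mt-Nd6, the only mRNA of the other strand, cannot be told apart from RNA antisense to it.

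Among the tRNAs, only mt-Tp (proline, 5682 counts) and mt-Tc (cysteine, 648 counts) passed the filter. mt-Tp lies beside the noncoding control region and had 67 windows of its own. mt-Tc borders the origin of light-strand replication and had 1. The other 6 tRNAs with any count held 1 to 37. Both sequences are shown 5′ to 3′ with the anticodon, found by the 5-base stem around a 7-base loop, in capitals.
mt-Tp: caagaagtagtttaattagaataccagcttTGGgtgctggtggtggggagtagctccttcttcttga
mt-Tc: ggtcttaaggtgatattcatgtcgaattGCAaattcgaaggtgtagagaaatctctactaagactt

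A read of 100 bases is longer than either tRNA, so these counts came from RNA that reached beyond the mature tRNA ends or from reads that were shortened before or during alignment, which the files do not separate. In the main comparisons, 11 of the 37 genes were tested (7 mRNAs, 2 rRNAs and 2 tRNAs), and 26 were below the filter.

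Mitochondrial genes took up a smaller share of the IP libraries than of the input in 9 of 10 tumors. In the control IgG input libraries 1 to 5, the 37 genes held 11.9%, 10.4%, 17.2%, 11.1% and 13.0% of all counts. In the IP libraries of the same tumors they held 2.44%, 4.37%, 1.16%, 11.3% and 2.21%. Tumor 4 was thus the exception, with the same share in both fractions (input over IP 0.979), and the other control tumors lost 2.38-fold to 14.8-fold.

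In the 6-3-A6 input libraries 1 to 5, the share was 10.7%, 6.90%, 11.2%, 38.2% and 13.1%. In their IP libraries it was 3.25%, 0.758%, 3.05%, 1.68% and 4.70%. All 5 of these IP libraries lay below all 5 inputs, and the 2.79-fold to 22.7-fold loss had its highest value in tumor 4. Over 10 tumors the mean log2 ratio of IP to input share was -2.27, and it was -2.28 without both tumors numbered 4. In these tumors the IP and input libraries, paired by title, did not correlate in their deviations from group means (-0.00178 for control IgG, -0.0287 for 6-3-A6). The share was described without a test, since it sums the members.

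**Figure D2:**
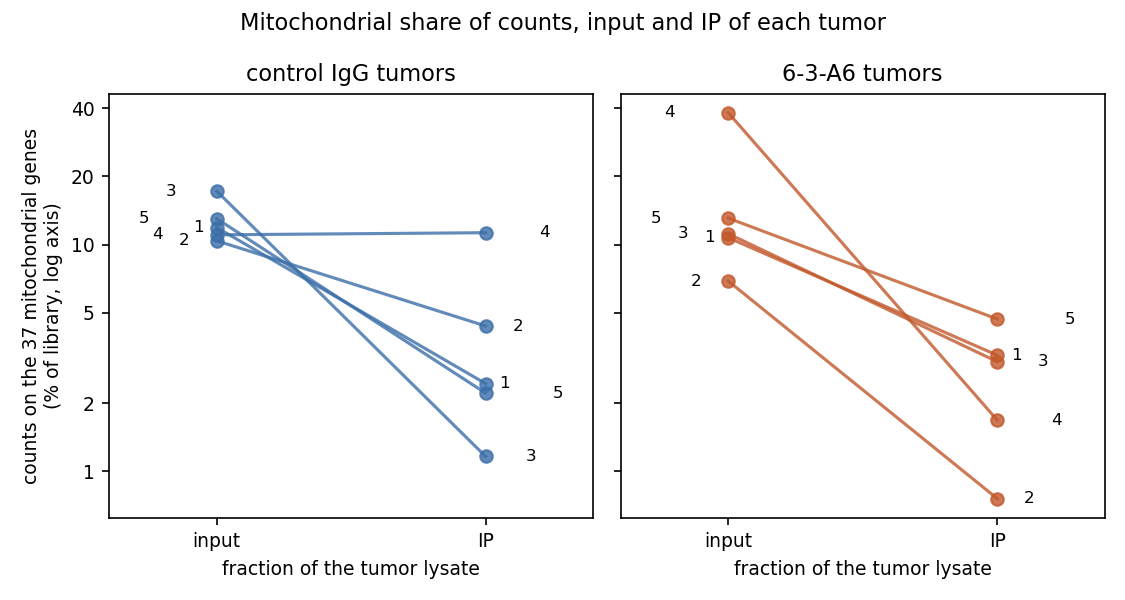
Percent of each library's counts on the 37 mitochondrial genes (log axis), with lines joining input and IP of the same tumor and numbers naming the tumor. Control IgG tumor 4 is flat (11.1% and 11.3%), and 6-3-A6 tumor 4 falls from 38.2% to 1.68%.

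The IP libraries differed in how far they were enriched for endothelial RNA, and those values are given beside the shares. In the control IgG IP libraries 1 to 5, the 17 endothelial markers summed to 7219.9, 4990.4, 6917, 1558 and 2799 CPM, lowest in the library with the highest mitochondrial share. In the 6-3-A6 IP libraries they summed to 6338, 1291, 5096, 5815 and 4948 CPM, lowest in the library with the lowest mitochondrial share. In control IgG tumor 4, Pecam1 was 6.97-fold higher in IP than in input, against 10.9-fold to 23.7-fold in the other control tumors. In 6-3-A6 tumor 2 it was 4.28-fold higher, against 15.0-fold to 32.0-fold in the others of that treatment. The part of endothelial enrichment in the mitochondrial share was not tested.

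Within the mitochondrial counts, mRNAs made up 79.8% to 95.1% in input and 86.8% to 97.7% in IP, rRNAs 4.85% to 20.2% and 2.25% to 13.2%, and tRNAs at most 0.0325%. The rRNAs fell further than the mRNAs in 8 of 10 tumors. The median loss (input over IP, share of all counts) was 7.77-fold for the rRNAs, 4.06-fold for the mRNAs and 11.3-fold for the tRNAs, whose counts are low. The exceptions for rRNA were both tumors numbered 4. In control IgG tumor 4 the rRNA share was higher in IP (input over IP 0.681), and in 6-3-A6 tumor 4 it fell 19.5-fold against 22.9-fold for the mRNAs.

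In the test of all 20 libraries (edgeR, with treatment as a covariate), all 11 tested genes were lower in IP, where 21.4% of the 13582 genes tested were called lower, 19.8% higher and 41.2% in either direction. Their median log2 fold change was -2.54, against -0.05 for all genes. With library totals alone as the scaling, the share of all calls that were higher in IP went from 48.2% to 70.4%, and the 11 genes stayed lower. Each of the 11 ranked among the 80 lowest log2 fold changes of the 13582. None had 10 IP libraries wholly below 10 input libraries (0 of 11, where 0.523% of genes did so and 4.97% had no overlap in either direction). All 11 were also called with the tumor as a block, where 27.3% of genes were called lower, and in every fit that left out 1 tumor (17.6% to 20.9% of genes). Both tumors numbered 4 moved some values by over 1.5-fold. Without 6-3-A6 tumor 4 the log2 fold change was -1.86 for mt-Nd2, -1.80 for mt-Nd4, -1.38 for mt-Nd5, -1.41 for mt-Nd6 and -1.94 for mt-Cytb. Without control IgG tumor 4 it was -3.42 for mt-Rnr1, -3.28 for mt-Rnr2 and -3.62 for mt-Tp. Fitted to the 6 tumors whose IP libraries the study kept, 10 were called, where 11.7% of genes were called lower, without mt-Tc (adjusted p = 0.101).

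mt-Rnr1 and mt-Rnr2 encode the rRNAs of the small and the large mitochondrial ribosomal subunit. mt-Rnr1 measured 4127, 1631, 2599, 1555 and 1975 CPM in the control IgG inputs 1 to 5 and 431, 398, 32.8, 1929 and 157 CPM in their IP libraries (CPM after TMM scaling, here and below). With 6-3-A6 it measured 2126, 891, 1793, 3885 and 2354 CPM in input and 169.5, 69.1, 363, 128 and 225 CPM in IP. The 2 fractions overlapped in the control tumors, through tumor 4, and did not overlap in the 6-3-A6 tumors.

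mt-Rnr1 was 6.83-fold lower in IP over all tumors (log2 fold change -2.77 ± 0.53, SE, adjusted p = 0.000324). mt-Rnr2 measured 21900.2, 9470.1, 8641, 6865 and 6652 CPM in the control inputs and 2743, 1923, 204, 10558 and 637 CPM in IP. The 6-3-A6 tumors had mt-Rnr2 at 8721, 4049.8, 6907, 24117 and 13321 CPM in input and 1093, 292, 1418, 737 and 1512 CPM in IP. It was 6.14-fold lower (-2.62 ± 0.57, adjusted p = 0.00115), and control IgG tumor 4 was the only tumor in which either rRNA was higher in IP.

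Complex I, which passes electrons from NADH to ubiquinone, takes 7 of its subunits from mitochondrial DNA, and 5 of the 7 were tested. mt-Nd1 measured 24997, 16069, 31055, 16201 and 18336 CPM in the control inputs and 3344, 5600.4, 913, 17982 and 2725 CPM in IP. The 6-3-A6 tumors had mt-Nd1 at 15769.6, 9396, 21712, 90911 and 22193 CPM in input and 3246, 946, 3937, 2045 and 5035 CPM in IP. It fell 6.06-fold over all tumors (-2.60 ± 0.52, adjusted p = 0.000485), with overlap in the control tumors only.

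mt-Nd2 measured 8448, 5792, 11085, 6608 and 8439 CPM in the control inputs, 1226, 2607, 443, 7492 and 1223 CPM in their IP libraries, 5871, 3942, 8629, 73030.1 and 8228 CPM in the 6-3-A6 inputs and 1506, 430.3, 1484, 881 and 2505 CPM in the 6-3-A6 IP libraries. A single input, 6-3-A6 tumor 4, was far above the rest. The log2 fold change of mt-Nd2 was -2.75 ± 0.63 (adjusted p = 0.00152). DESeq2 gave no adjusted p for mt-Nd2 here.

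The other tested subunits of complex I followed. mt-Nd4 ranged from 6222 to 10299 CPM (median 8350.2) in the control inputs and from 569.8 to 7257 CPM (median 1756) in IP, and in the 6-3-A6 tumors from 3848 to 53160.5 CPM (median 7353) and from 482 to 2996 CPM (median 1687). It fell 5.64-fold over all tumors (-2.50 ± 0.54, adjusted p = 0.000967). mt-Nd5 and mt-Nd6, which overlap by 14 bases on opposite strands, fell less, by 4.25-fold (-2.09 ± 0.48, adjusted p = 0.00179) and 4.55-fold (-2.19 ± 0.53, adjusted p = 0.0027).

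mt-Nd6 measured 7841, 4893, 8525, 5046 and 8344 CPM in the control inputs and 2354, 3034, 884, 6246 and 1366 CPM in their IP libraries, and 5108, 3236, 6531, 51849 and 9371 CPM in the 6-3-A6 inputs and 2071, 465, 1568, 964 and 4104 CPM in their IP libraries. Its fractions overlapped in both treatments, and it was higher in IP in control IgG tumor 4 alone.

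mt-Nd5 measured 5116, 6011, 16400.2, 8636 and 16528 CPM in the control inputs and 2748, 4380.5, 1649, 8429 and 2620.3 CPM in their IP libraries, lower in IP in 5 of 5. In the 6-3-A6 tumors mt-Nd5 measured 9099, 6864, 10059.9, 64548 and 7092 CPM in input and 3896, 892, 2765, 1546 and 5257 CPM in IP, again lower in 5 of 5. Its smallest difference was in control IgG tumor 4 (1.02-fold), and its largest in 6-3-A6 tumor 4 (41.8-fold).

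mt-Cytb, the cytochrome b of complex III, measured 24081, 26314, 36609, 22388 and 27550.2 CPM in the control inputs and 4539.7, 8663, 1777, 21201 and 4086 CPM in IP. With 6-3-A6, mt-Cytb measured 19926, 12866, 23764, 145289 and 39553 CPM in input and 5729, 1335, 5568, 3244 and 8279 CPM in IP. Input and IP did not overlap in either treatment, though the highest control IP (tumor 4) came near the lowest control input (also tumor 4). The log2 fold change over all tumors was -2.54 ± 0.51 (adjusted p = 0.000479).

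mt-Co1, the catalytic subunit of cytochrome c oxidase (complex IV), had the smallest fall of the mRNAs in the fit over all tumors. With the tumor as a block, mt-Nd5 (-1.83) and mt-Nd6 (-2.03) were nearer to 0 than mt-Co1 (-2.16), as they were in the control tumors alone and without 6-3-A6 tumor 4 (-1.38 and -1.41, against -1.67 for mt-Co1). mt-Co1 measured 21860.1, 27404, 68525, 34607 and 36498 CPM in the control inputs and 4907, 11930.2, 4049.6, 30463 and 5788 CPM in their IP libraries. In the 6-3-A6 tumors it measured 35423, 18926, 27733, 70397 and 32786 CPM in input and 10298, 2251, 8938, 4799.7 and 15387 CPM in IP. All 10 tumors were lower in IP, by 1.14-fold to 16.9-fold, and the log2 fold change was -1.94 ± 0.40 (adjusted p = 0.000597). The mitochondrially encoded subunits of complex V could not be measured, since both are among the genes with few counts.

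The tRNA mt-Tp had the largest fall in the fit over all tumors. It measured 29.2, 33.8, 29.9, 24.7 and 31.6 CPM in the control inputs and 2.54, 5.50, 0.383, 20.4 and 2.24 CPM in IP. In the 6-3-A6 tumors mt-Tp measured 23.9, 16.3, 33.5, 65.5 and 45.0 CPM in input and 2.05, 1.03, 5.50, 2.88 and 2.10 CPM in IP. The fractions did not overlap in either treatment, and the log2 fold change was -2.99 ± 0.49 (7.96-fold, adjusted p = 5.63e-05).

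mt-Tc was lower by 3.67-fold (-1.87 ± 0.60, adjusted p = 0.0161), on 0 to 153 counts per library. Its control libraries ran from 0.340 to 8.56 CPM in input and from 0.0547 to 2.90 CPM in IP, and its 6-3-A6 libraries from 0 to 4.73 CPM and from 0.117 to 1.31 CPM. These ranges overlapped in both treatments. Control IgG tumors 2 and 4 were higher in IP, as was 6-3-A6 tumor 5, with 0 counts in input and 10 in IP. The lowest of its values rest on 0 to 4 counts.

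**Figure D3:**
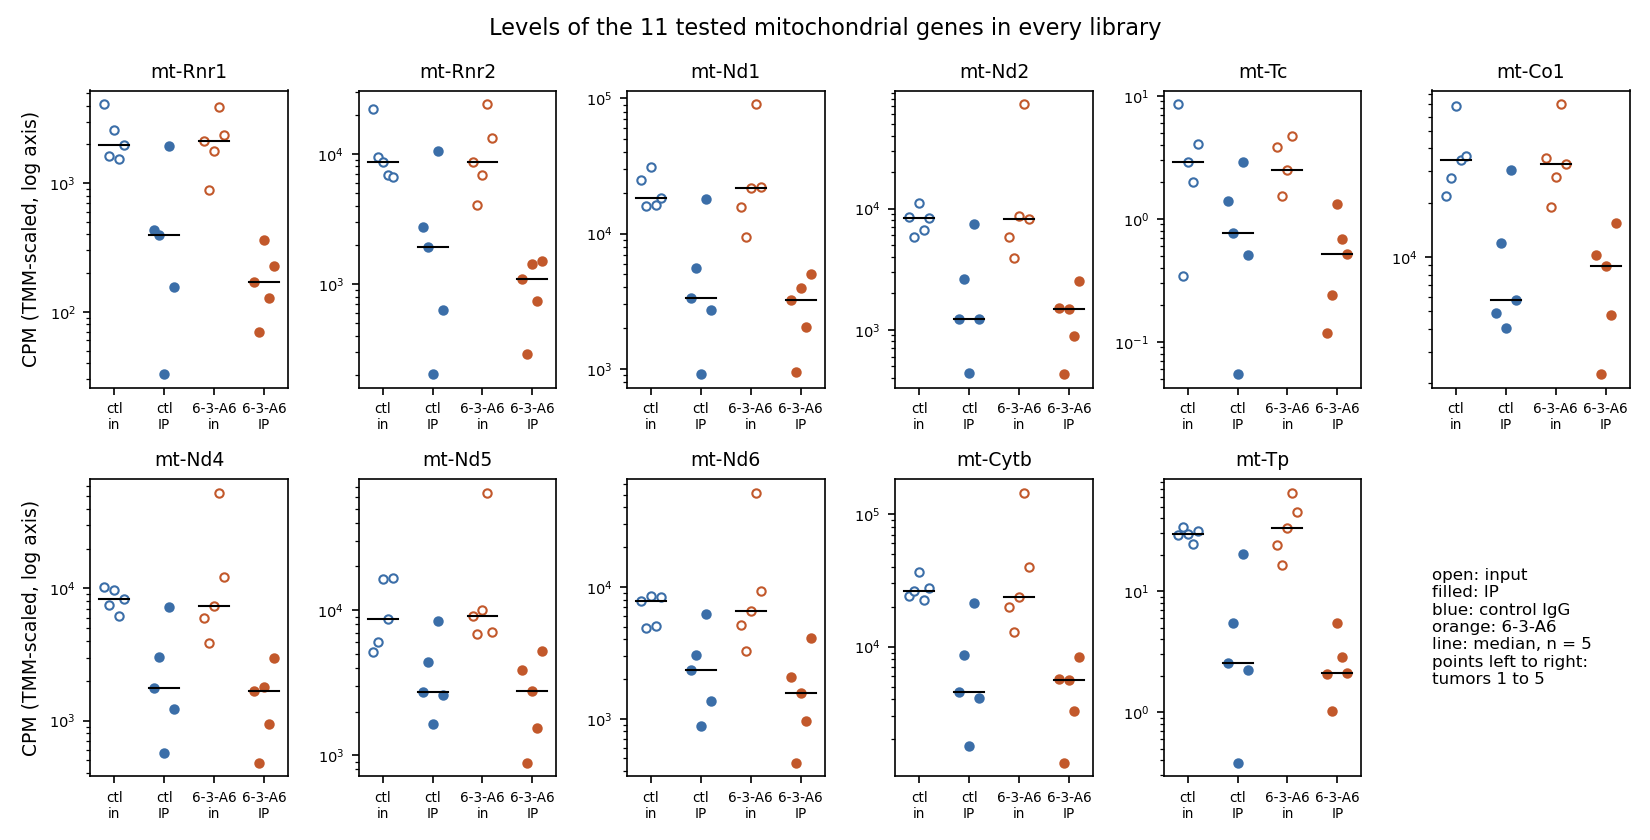
CPM after TMM scaling (log axis) of each tested gene in each library, input open and IP filled, control IgG blue and 6-3-A6 orange, with the median of 5 as a line and tumors 1 to 5 from left to right. A mt-Tc value of 0 (6-3-A6 input 5) cannot be drawn on the log axis. The highest control IP point is tumor 4 in all 11 genes, and the highest 6-3-A6 input point is also tumor 4.

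Levels can be compared between genes only per length, here as the CPM per 1000 windows that lay in 1 gene alone and had no nuclear copy. In input, the median level was highest for mt-Co1 (33696 CPM per 1000 windows, n = 10), then mt-Cytb (24112), mt-Nd1 (23392), mt-Nd6 (17699), mt-Nd4 (15779.6), mt-Nd2 (9188), mt-Rnr2 (5854), mt-Nd5 (5183) and mt-Rnr1 (2395). In IP the order began with mt-Co1 (7363), mt-Cytb (4836) and mt-Nd6 (4481) and ended with mt-Rnr2 (847) and mt-Rnr1 (231). The ranges of neighbors in this order overlapped throughout, for example 18926 to 70397 for mt-Co1 and 12312 to 139033 for mt-Cytb in input. Both rRNAs, which exceed the mRNAs in mitochondria, were low on this scale, and how the libraries selected RNA is not given in the sources used here.

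The make-up of the mitochondrial counts moved with the fraction. mt-Co1 held a larger part of them in IP than in input in 9 of 10 tumors (median 31.4% against 26.8%), and mt-Nd5 (11.5% against 8.45%) and mt-Nd6 (6.93% against 5.38%) in 8 of 10. mt-Nd1 held less in 9 of 10 (13.4% against 15.2%), and in 8 of 10 each so did mt-Rnr2 (4.35% against 6.34%), mt-Rnr1 (0.898% against 1.52%), mt-Cytb (19.1% against 20.7%) and mt-Nd2 (5.64% against 6.13%). mt-Nd4 was split evenly (5 of 10). Parts of a whole are not independent, and no test was made of them.

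**Figure D4:**
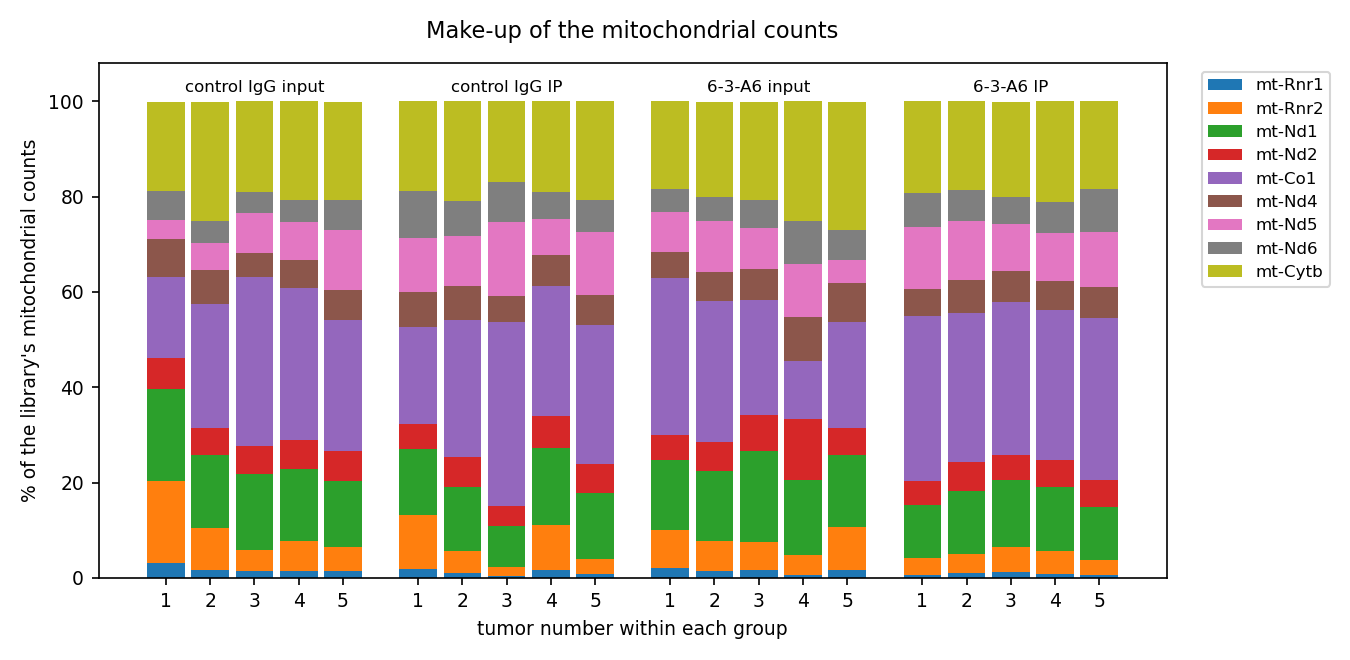
Stacked bars give the percent of each library's mitochondrial counts on the 9 well-counted mRNA and rRNA genes, by group and tumor. The 6-3-A6 input 4 stands apart with 12.2% on mt-Co1 and 12.7% on mt-Nd2.

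Taken by treatment, the control tumors alone gave fewer calls. In a fit with a separate IP effect for each treatment, 2 of 11 genes were called lower in the control tumors, mt-Tp (log2 fold change -2.27 ± 0.63, adjusted p = 0.0211) and mt-Co1 (-1.72 ± 0.56, adjusted p = 0.0489), where 3.1% of 14488 genes were called lower, 8.28% higher and 11.4% in either direction. The median of the 11 was -1.72. The other 9 had adjusted p values from 0.0609 (mt-Rnr1) to 0.215 (mt-Nd6), edgeR. mt-Tp and mt-Cytb were the 2 genes whose 5 IP libraries lay below all 5 inputs, where 4.29% of genes did so and 12.9% had no overlap in either direction.

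With the tumor as a block, which the shared lysate allows, 8 of 11 were called lower in the control tumors (not mt-Tc, mt-Nd5 and mt-Nd6, adjusted p = 0.186, 0.123 and 0.0833). Calls over all genes rose as well under the block, to 9.73% lower, 12.7% higher and 22.4% in either direction. The count also turned on single tumors. It was 8 without control IgG tumor 4, where 4.13% of genes were called lower, and 0 without control IgG 1, 2, 3 or 5, where 0.332% to 0.983% were. It was 6 without 6-3-A6 tumor 4, which shares the estimate of spread (5.31% of genes lower), 1 without 6-3-A6 tumor 1 or 3 (2.39% and 2.16%), and 10 without both tumors numbered 4 (6.47%). All 11 log2 fold changes stayed below 0 in all of these. Their size depended on control IgG tumor 4, without which the median was -2.56 and all but mt-Nd5 moved by over 1.5-fold. Values were then -3.51 for mt-Tp, -3.32 for mt-Rnr1, -3.06 for mt-Rnr2, -2.82 for mt-Nd1 and -2.51 for mt-Co1. Size depended on the block too, with a median of -2.24 and 5 genes moved by over 1.5-fold (mt-Rnr1, mt-Rnr2, mt-Nd1, mt-Nd2 and mt-Tp). In the tumors kept by the study the median was -0.94, and 8 genes moved by over 1.5-fold.

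In the 6-3-A6 tumors 10 of 11 genes were called lower, where 13.5% of genes were called lower, 12.8% higher and 26.3% in either direction. Their log2 fold changes ran from -2.14 ± 0.57 for mt-Co1 (adjusted p = 0.00875) to -3.85 ± 0.81 for mt-Nd2 (adjusted p = 0.00168), with a median of -3.36 over the 11. The tRNA mt-Tc (-2.06 ± 0.88, adjusted p = 0.0872) was not called. For 9 of 11 the 5 IP libraries lay below all 5 inputs, where 6.58% of genes did so and 14.8% had no overlap in either direction, the exceptions being mt-Nd6 and mt-Tc. Without 6-3-A6 tumor 4, 7 were called, where 9.31% of genes were called lower, and mt-Co1, mt-Nd5 and mt-Nd6 no longer passed (adjusted p = 0.0629, 0.0725 and 0.0601). The median was then -2.14, and 6 genes had moved by over 1.5-fold, to -2.14 for mt-Nd2, -2.36 for mt-Nd1, -2.04 for mt-Nd4, -1.35 for mt-Nd5, -1.53 for mt-Nd6 and -2.17 for mt-Cytb. mt-Nd2, the largest fall with all 5 tumors and no tumor block, then fell less than both rRNAs (-3.08 and -2.90) and mt-Tp (-3.41). With all 5 tumors and the tumor as a block, mt-Nd2 also moved by over 1.5-fold toward 0. The largest fall was then -3.77, in another gene, and the median was -2.88.

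**Figure D5:**
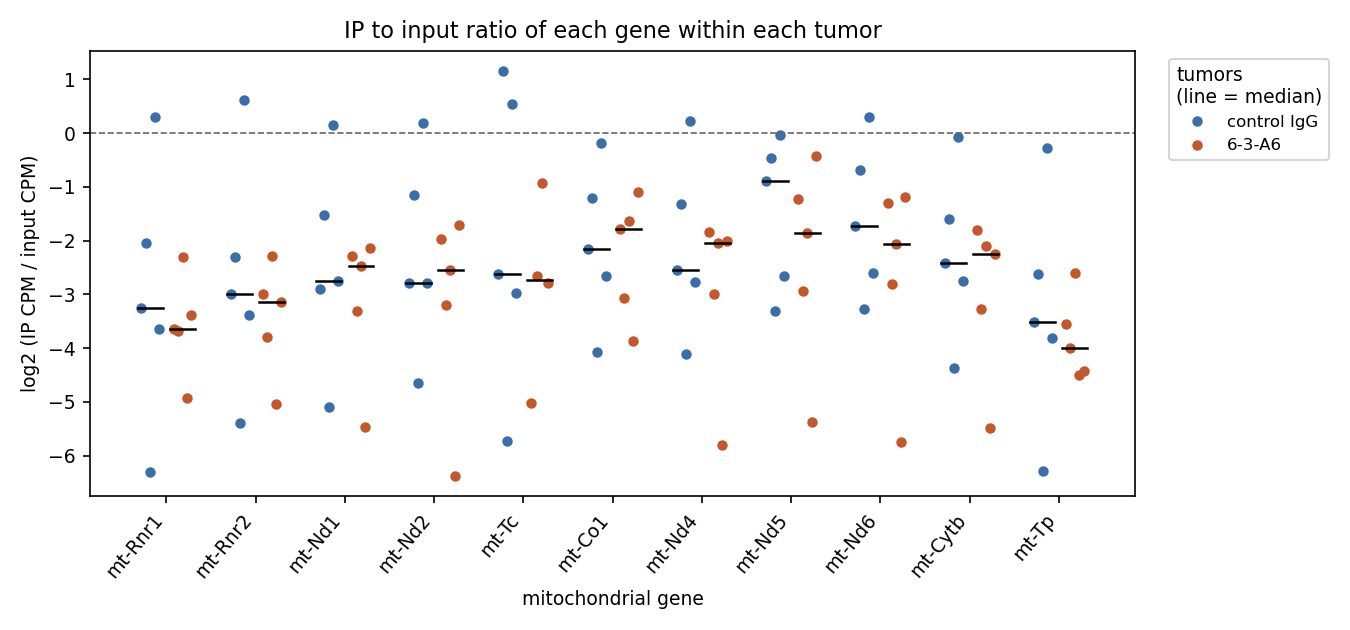
Log2 ratio of IP to input CPM within each tumor for the 11 tested genes, control IgG in blue and 6-3-A6 in orange, with the median as a line and 0 (no difference) dashed. The ratio of mt-Tc in 6-3-A6 tumor 5, whose input count was 0, is left out. For the rRNAs, mt-Nd1, mt-Nd2, mt-Nd4 and mt-Nd6, control IgG tumor 4 is the only point above 0.

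Whether the loss in IP depended on treatment was tested by the interaction of treatment and fraction. None of the 11 genes was called (0% of 14488 genes called, 125 genes at an unadjusted p under 0.05, edgeR, and 0 members called by DESeq2). All 11 estimates were negative, a larger fall in the 6-3-A6 tumors, from -0.36 ± 1.19 for mt-Tc to -2.21 ± 1.04 for mt-Nd2 (median -1.53). mt-Nd2 was the only member with an unadjusted p under 0.05, and its 95% interval ran from -4.36 to -0.06. With the tumor as a block the estimates were nearer to 0, from -0.84 for mt-Nd6 to -0.20 for mt-Tc, with -0.73 for mt-Nd2. The mt-Nd2 estimate was -1.18 without control IgG 4 and -0.52 without 6-3-A6 4. Without both it was 0.45 ± 0.68, and the direction of mt-Tc turned as well (0.76 ± 1.37).

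Within single tumors, the log2 ratio of IP to input of each mRNA and rRNA was also compared between the 5 control and 5 6-3-A6 tumors. The largest difference in mean was that of mt-Nd6, with -1.60 ± 1.44 in the control and -2.62 ± 1.86 in the 6-3-A6 tumors (SD, n = 5). Its p was 0.381 in a two-sided exact permutation test (adjusted p = 0.684 over 9 genes), and the smallest p this design allows is 0.00794. The other 8 p values ran up to 0.786 in the same exact test. The spread between tumors of 1 treatment exceeded the difference between treatments for all 9.

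Between treatments in the IP fraction, none of the 11 genes passed the test. The study kept 3 control (2, 4 and 5) and 3 6-3-A6 (1, 3 and 4) IP libraries after removing libraries that stood apart in a principal component plot, so these 6 were chosen from expression values. Among them 0 of 11 members were called, where 4.61% of 13999 genes were (2.57% higher and 2.04% lower). All 11 estimates were lower with 6-3-A6 (median log2 fold change -1.40, all genes -0.05), from -0.89 ± 0.76 for mt-Tc (adjusted p = 0.576) to -2.03 ± 0.78 for mt-Rnr2 (adjusted p = 0.175), and 7 had an unadjusted p under 0.05. By DESeq2 0 were called.

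The 3 control libraries of that set included IP library 4. mt-Rnr2 measured 1923, 10558 and 637 CPM in them and 1093, 1418 and 737 CPM in the 3 6-3-A6 libraries, so the groups overlapped, as they did for all 11 members (0 of 11 without overlap, where 24.3% of genes had none and 10.7% were wholly lower). Without control IgG 4 the estimate for mt-Rnr2 was -0.25 (adjusted p = 0.799). In the same 6 libraries 6 of 17 endothelial markers (median log2 fold change 0.93) and 3 of 4 globins (3.21) were called higher with 6-3-A6, where 2.57% of genes were. The test called lower, as it did 2.04% of genes, 6 of 13 macrophage markers (-0.90), 2 of 10 fibroblast, 2 of 6 epithelial and 1 of 6 mural markers, with 0 of the adipocyte, lymphoid and skeletal muscle markers called, and the part of these cells in the mitochondrial values was not tested. With genes below the filter tested as well, 10 members were called lower (2.71% of genes), and without control IgG 5, 3 were (2.53%).

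With all 10 IP libraries, 0 of 11 were called (0% of 13602 genes called, 292 genes and 0 members at an unadjusted p under 0.05, 0 members by DESeq2). The estimates ran from -0.46 ± 0.61 for mt-Co1 to -1.67 ± 0.82 for mt-Rnr2, with a median of -0.90, and the 95% intervals for these genes were -1.79 to 0.87 and -3.46 to 0.11. None had groups without overlap (0.206% of genes had, 0.14% wholly lower). Without control IgG 4 alone the mt-Rnr2 estimate was -0.42 and that of mt-Co1 turned to 0.32, and without both tumors numbered 4 they were -0.33 and 0.47.

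In the input fraction, which holds RNA of the whole tumor, 0 of 11 were called (0% of 13683 genes called, 180 genes and 0 members at an unadjusted p under 0.05, 0 members by DESeq2). Estimates ran from -0.55 ± 0.82 for mt-Tc to 1.25 ± 0.69 for mt-Nd2 (median 0.54). The 95% interval for mt-Nd2 was -0.25 to 2.74. Without 6-3-A6 tumor 4 the estimate was -0.28, and without both tumors numbered 4 it was -0.34. No member had input groups that did not overlap (0.205% of genes had, 0.102% wholly lower). The 6 IP libraries kept by the study are among the 10, so the IP comparisons are not independent.

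In CPM after TMM scaling, the 6-3-A6 input 4 held 9 of the 11 genes above every other input library. Its TMM factor was 0.665, which raises its CPM, and by library totals alone 7 of 11 were highest there, with mt-Co1 below control IgG input 3 and mt-Rnr2 below control IgG input 1. After TMM its mt-Nd2 level was 8.88-fold the median of the other 9 inputs (6.59-fold by totals), mt-Nd6 7.94-fold, mt-Nd5 7.47-fold, mt-Nd4 7.10-fold, mt-Cytb 6.03-fold and mt-Nd1 4.96-fold. mt-Co1 (2.15-fold, 1.60-fold by totals), mt-Rnr2 (2.79-fold), mt-Rnr1 (1.97-fold) and mt-Tc (1.91-fold) rose less. The rise was thus uneven over the genome. The ratio of mt-Nd2 to mt-Co1 counts was 1.04 in it and 0.109 to 0.387 in the other 19 libraries, and that of mt-Cytb to mt-Co1 was 2.06 against 0.439 to 1.21. Nuclear genes of the respiratory chain held 0.438% of its counts, the lowest of the 10 inputs (up to 0.811%). That total includes mitochondrial counts, which made up 38.2% of this library. In summed CPM after TMM, it was at the median of the 6-3-A6 inputs for complexes I (1635) and V (2252). It was above that median for complexes III (942 against 749) and IV (1420 against 1158) and lowest for complex II (378).

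The nuclear genes of the respiratory chain held about the same share of all counts in both fractions. Together, those of complexes I to V held 0.438% to 0.811% of input counts and 0.506% to 0.819% of IP counts, a median input over IP ratio of 1.01 (0.568 to 1.38 over 10 tumors). Mitochondrial counts exceeded them 11.8-fold to 87.1-fold in input and 1.29-fold to 19.5-fold in IP. All counts include the mitochondrial ones, whose share was lower in IP in 9 of 10 tumors. After TMM scaling, the median log2 fold change was below 0 for each of these complexes, from -0.12 (complex II) to -0.45 (complex IV). By gene, 1 of 35 tested nuclear genes of complex I was called higher and 10 lower (median log2 fold change -0.28), where 19.8% of all genes were called higher and 21.4% lower. The largest fall was that of Ndufs5 (-1.17 ± 0.26, adjusted p = 0.00142), and Ndufs1, an iron-sulfur subunit, rose (0.67 ± 0.20, adjusted p = 0.0119).

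In complex II, which has no mitochondrially encoded subunit, 1 of 4 genes rose, Sdha (0.64 ± 0.12, adjusted p = 0.000164). In complex III 2 rose and 1 fell of 9 (median -0.27), in complex IV 0 rose and 2 fell of 11 (-0.45) and in complex V 0 rose and 5 fell of 17 (-0.43). The lowest of these was Atp5l at -1.58 ± 0.44 (adjusted p = 0.0073). With the tumor as a block, 25.1% of all genes were called higher, 27.3% lower and 52.4% in either direction, against 41.2% without it. Under that block 9 of the 11 complex IV genes and 8 of the 17 complex V genes fell, 2 rose and 13 fell of the 35 in complex I, 1 rose and 1 fell in complex II, and complex III kept its counts of 2 and 1.

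Genes that copy, transcribe and translate mitochondrial DNA were mostly not called, and the counts of most of these lists lay near or below the shares of all genes called (19.8% higher and 21.4% lower). Of 6 genes of mitochondrial DNA replication, Polg, the polymerase subunit, rose (0.63 ± 0.16, adjusted p = 0.00348), and Ssbp1 (-0.84 ± 0.21, adjusted p = 0.00334) and Polg2 fell. Of 7 transcription genes, Polrmt, the mitochondrial RNA polymerase, rose (0.63 ± 0.22, adjusted p = 0.0247). Of 19 genes of RNA processing and stability 2 rose and 0 fell, among them Pnpt1 (0.80 ± 0.15, adjusted p = 0.000265).

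Of 12 translation factors 2 rose, Gfm1 (0.76 ± 0.13, adjusted p = 0.000119) and Tufm, and of 17 mitochondrial aminoacyl-tRNA synthetases 5 rose and 0 fell, with Aars2 the highest (0.81 ± 0.17, adjusted p = 0.000868). Of 6 regulators of mitochondrial biogenesis 1 rose (Gabpa). Among 72 mitochondrial ribosomal proteins 1 rose and 21 fell (median -0.25), and among 75 cytosolic ribosomal proteins 0 rose and 65 fell (median -0.79). With the tumor as a block, where 25.1% of genes rose and 27.3% fell, the counts were 1 higher and 2 lower for replication, 1 and 1 for transcription, 3 and 0 for RNA processing and stability, 3 and 2 for translation factors, 7 and 0 for synthetases, 2 and 0 for biogenesis regulators, 3 and 31 for mitochondrial and 0 and 70 for cytosolic ribosomal proteins. The nuclear copy Gm28438, the only one of the chromosome 1 cluster that passed the filter, was lower in IP (-1.99 ± 0.46, adjusted p = 0.00184), on at most 49 counts per library, and its reads cannot be told apart from those of mt-Nd3 over most of its length.

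Lists of markers of other cells had medians between -1.24 and -0.26 in IP. Of 13 macrophage markers 9 fell in IP (median -0.68), and, counting tested genes, of 10 fibroblast markers 3 (-0.50), 6 mural markers 1 (-0.26), 6 epithelial markers 2 (-0.46), 5 lymphoid markers 3 (-1.06), 6 adipocyte markers 0 (-0.61), 3 skeletal muscle markers 2 (-1.24) and 4 globins 0 (-0.77). None of these was called higher. Over all genes 21.4% fell, so the counts of the small lists, such as 1 of 6 or 3 of 10, are near what all genes gave. With the tumor as a block, where 27.3% of genes fell and 25.1% rose, 12 macrophage, 5 fibroblast, 2 mural, 3 epithelial, 5 lymphoid, 4 adipocyte and 2 skeletal muscle markers and 4 globins were called lower, and 1 epithelial marker higher. The 13 macrophage markers summed to 6374 to 15447 CPM in input and 3261 to 9019 CPM in IP, so RNA of other cells was still present in IP, and its part in the mitochondrial values that remained was not tested.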

How the data were processed

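Input and IP RNA of 10 tumors was sequenced as 100-base single reads. The authors aligned reads with STAR 2.7.4a and made the deposited raw counts per gene with featureCounts (2.0.1 in the methods, 1.5.2 also in the submitters' processing notes). The methods name mm10, whereas nuclear positions in the table follow GRCm39. All 37 mitochondrial genes have the same position and strand in GENCODE vM21. A second deposited table, with the authors' own DESeq2 fold changes and p-values and the scaled counts of the 6 IP libraries they kept, named those libraries, and no value of it was used. No other per-sample column was present.

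Counts were analysed with edgeR 4.0.16 (R 4.3.3, limma 3.58.1): filterByExpr, TMM scaling, glmQLFit and glmQLFTest over all genes, Benjamini-Hochberg adjusted p under 0.05. The study tested IP libraries with DESeq2 alone, used here (1.42.0) as an alternative. Scripts were tested on simulated counts with 200 changed genes. CPM use TMM-scaled library sizes, whereas shares use raw totals. Limits for 0 counts (3 counts) cover counting error only. The SE is the log2 fold change over the root of F, and 95% intervals use it with the t quantile for the quasi-likelihood degrees of freedom, so they include the spread between tumors. The rule for members used no measured value, but it and the gene lists were set with earlier results of these data known. All 37 members were named by the rule, with non-members only as the largest or smallest change among called genes of a list or as fraction checks. Alternatives to the treatment comparisons were followed for the members with the lowest and highest value.

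By their titles, same-numbered IP and input libraries of a treatment come from 1 lysate and so pair by animal. Their deviations from group means correlated at -0.0287 to 0.754, over 0.1 in 8 of 10. The exceptions were both tumors numbered 4 (-0.00178 for control IgG and -0.0287 for 6-3-A6). The own input was the best match of the IP in 8 of 10 tumors, and not in these. The pairing of the tumors numbered 4 thus rests on the titles alone. Separate tumors were taken as replicates. Of 40 replicate pairs none agreed within sampling noise (lowest median chi-square per gene 2.24, against 0.455 from sampling alone). Alternatives were other scalings, no filter, DESeq2, a tumor block, the tumors kept by the study, leaving out each tumor and, chosen after seeing the data, leaving out both tumors numbered 4.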

Additional observations from a re-analysis of the deposited data

Results flagged for a closer look

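Of 68 sets of 5 libraries examined (4 groups by 11 genes and by 6 summary measures), 18 held 1 library whose gap to the next exceeded 0.71 of the range. Chance gives about 1 in 20 for normally distributed values. The CPM and percentages used here were not log-scaled, so that rate need not hold for them. Genes of 1 library move together, so these are not separate events. The 6-3-A6 input 4 accounted for 9: mt-Nd1 (90911 CPM, others 9396 to 22193), mt-Nd2 (73030.1 CPM, others up to 8629), mt-Nd4 (53160.5 CPM), mt-Nd5 (64548 CPM), mt-Nd6 (51849 CPM), mt-Cytb (145289 CPM), the mitochondrial share (38.2%), the mRNA share (36.3%) and the ratio of mt-Nd2 to mt-Co1 counts (1.04). The control IgG IP 4 accounted for 6: mt-Rnr1 (1929 CPM, others 32.8 to 431), mt-Rnr2 (10558 CPM), mt-Nd1 (17982 CPM), mt-Tp (20.4 CPM), the rRNA share (1.26%) and the tRNA share (0.00239%). The other 3 were the control IgG input 1, with high mt-Rnr2 (21900.2 CPM, others 6652 to 9470.1) and a high rRNA share (2.41%), and the control IgG IP 3, with a low ratio of mt-Nd2 to mt-Co1 counts (0.109, others 0.211 to 0.250). Their causes were not tested.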

How the results depend on the processing

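All 593 alternative log2 fold changes of the 11 members between IP and input were below 0 (-4.46 to -0.66), and 549 kept their side of the threshold. Over all tumors 10 to 15 members were called, 15 being with no filter, where the low-count members were tested too. With no filter, 7.91% of genes were called lower and 17.9% in either direction. Genes called fell from 5597 to 3347 in the tumors kept by the study. In the control tumors the count of 2 members became 1 with mitochondrial genes left out of the scaling (2.86% of genes called lower). It was 1 with no filter (0.485%), 8 with the tumor block (9.73%) and 0 in the tumors kept by the study (0.0748%). It was 10 without both tumors numbered 4 (6.47%) and 0 to 8 leaving out 1 tumor (0.332% to 5.31%). The genes called there (1649) became 3249 with the tumor block and 607 in the kept tumors (596 higher and 11 lower). They became 2512 without both tumors numbered 4 and 770 to 2322 leaving out 1 tumor. In the study's 6 IP libraries, the 0 members became 10 with no filter (2.71% of genes called lower). They became 0 to 3 leaving out 1 library (0.0283% to 2.53%). There, 646 genes became 1190 by DESeq2, 1459 with no filter and 9 to 653 leaving out 1 library. These were 188 without control IgG 4, and 345, 9 and 161 without 6-3-A6 1, 3 and 4. Reversals occurred only where treatments were compared. Without both tumors numbered 4, the interaction was 0.45 for mt-Nd2 and 0.76 for mt-Tc, 6-3-A6 against control was 0.47 for mt-Co1 in all IP libraries and -0.34 for mt-Nd2 in input. Leaving out 1 tumor gave -0.93 to 0.51 for the mt-Tc interaction (above 0 without control IgG 4 or 6-3-A6 1), -1.72 to 0.20 for mt-Tc in the study's IP libraries, -0.82 to 0.32 for mt-Co1 in all IP libraries, and -0.85 to 0.070 for mt-Tc and -0.28 to 1.51 for mt-Nd2 in input, turned by leaving out control IgG 4, control IgG 4, control IgG 1 and 6-3-A6 4, respectively. The causes were not tested. Scaling by library totals alone shifted the median of all genes by 0.184 (all tumors), 0.137 (control) and 0.213 (6-3-A6), and the calls that were higher went from 48.2% to 70.4%, 72.8% to 90.3% and 48.8% to 72.9%. No member changed direction between IP and input. The tumor block changed no other call of a member. Between treatments a shared number names no shared animal (correlations -0.357 to 0.455, over 0.1 in 3 of 10), and with the number as a block 0 members were called in IP and 0 in input. No paired analysis was possible for the study's IP libraries because the groups share 1 number. Of the tested members mt-Tc had the fewest counts, 0 to 153 per library.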
